A study of Mus musculus with 2 samples.

Results

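The cells described here are the cardiomyocyte-like cells of an embryonic day (E) 9.5 sample of mouse second heart field. They were chosen by a rule on measured values: a cell was taken when Tnnt2 (cardiac troponin T), Myl7 and Myl4 (the atrial regulatory and essential myosin light chains) together made up 0.1% or more of its unique molecular identifiers (UMIs, 1 per captured transcript molecule). The rule found 71 of the 533 E9.5 cells: 62 of 418 posterior, 5 of 61 middle and 4 of 54 anterior cells. The 62 posterior cells were set against the other 356 posterior cells. The study held 1 wild-type sample of each of E9.5 and E10.5, with 1500 cells in all. The tissue was cut into anterior, middle and posterior parts and, at E10.5, the outflow tract, and its cells were labelled as Osr1+. Every deposited cell held at least 1 Osr1 UMI. The labels name no genetic alteration or treatment, and no number of embryos per sample.

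The second heart field is mesoderm that supplies new cells to the growing heart tube. Its posterior part contributes to the atria and the venous inflow and borders the foregut mesenchyme that builds the lung. As such cells differentiate, the transcription factors Nkx2-5, Mef2c, Gata4, Tbx5 and Tbx20, together with the cofactors myocardin and SRF, act on genes of the sarcomere. The sarcomere is the contractile unit in which myosin thick filaments pull on actin thin filaments anchored at Z discs and held by titin. SRF binds a short A/T-rich element called the CArG box, found near the start of many muscle genes.

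The sequences just before the annotated starts of Actc1 (cardiac alpha-actin), the gene with the largest ranked difference outside the rule, and of Myl7, the most abundant gene of the rule, are shown because each holds a CArG box, printed in capitals. They are from RefSeq on GRCm38.p6, minus strand, 5′ to 3′, and end at the base before the start: chr2:114052876-114052995 for Actc1 and chr11:5898783-5898902 for Myl7.
Actc1: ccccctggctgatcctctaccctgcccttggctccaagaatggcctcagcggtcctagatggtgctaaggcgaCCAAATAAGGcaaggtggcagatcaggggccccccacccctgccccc
Myl7: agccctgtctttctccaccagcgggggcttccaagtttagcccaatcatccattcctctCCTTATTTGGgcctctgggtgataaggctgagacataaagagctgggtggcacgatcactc
The box began 47 bases before the start in Actc1 and 61 bases before it in Myl7. RefSeq windows (250 bases before to 50 after a start) were found for 29 of the 32 sarcomere and smooth muscle genes that were at least 2-fold higher in the posterior cardiomyocyte-like cells. A CArG box on either strand lay in 8 of their 38 windows (21.1%), against 535 of all 32851 windows (1.63%). Those 8 windows belonged to 6 genes: Actc1, Fhl2, Ldb3, Myl3, Myl9 and Nebl. The GATA motif AGATAA lay in 13.2% of the 38 windows and in 11.2% of all windows. The MEF2 motif lay in 5.26% and 1.86% of them, in Ttn and Mybpc3 among the muscle genes. A match in a window is a description of the letters and not of binding.

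The cells of the rule were found at all 3 positions of E9.5 and, as a share of all cells, were most frequent in the posterior library. They made up 14.8% of posterior cells (exact Clopper-Pearson 95% interval 11.6% to 18.6%), 8.20% of middle cells (2.72% to 18.1%) and 7.41% of anterior cells (2.06% to 17.9%). Of the cells outside the rule, 37 of 50 anterior, 21 of 56 middle and 54 of 356 posterior carried foregut epithelial markers (defined below). No cell of the rule did. The shares above are of whole libraries, so their order need not hold among non-epithelial cells. All intervals here cover counting error only. With 1 sample per stage there is no replicate, so no test was made and no p-value is given. After each cell was thinned to 4000 UMIs the shares were 16.3%, 6.56% and 7.41%; 57 of the 67 posterior cells then meeting the rule met it unthinned too. In the posterior library, 62 cells held 2142174 UMIs and the other 356 held 11508234. The median depth was 33027.5 UMIs per cell (range 1288 to 105157) in the first group and 30977.5 (964 to 104458) in the second. The median number of genes per cell was 5683 and 5482.

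**Figure D1:**
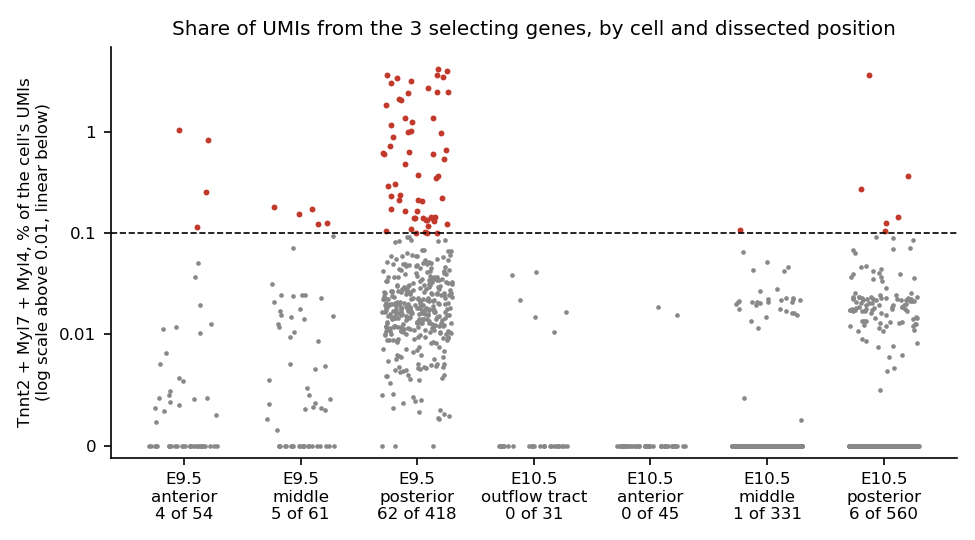
Each point is a cell. The vertical axis is the share of its UMIs from Tnnt2, Myl7 and Myl4, in percent, logarithmic above 0.01 and linear below; columns are the 7 dissected libraries and the dashed line is the rule at 0.1%. Red points meet the rule, 62 of them in the E9.5 posterior library, where the points run without a gap from the bulk of the cells up to 4.20%.

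The rule cuts a continuous range. Among the 62 posterior cells the share of the 3 genes ran from 0.1005% to 4.20%, with a median of 0.432%; among the other 356 it had a median of 0.0175%. The 5 cells just inside the rule had shares of 0.1005% to 0.106%, and the 5 just outside 0.0922% to 0.0842%. There were 29 posterior cells between 0.05% and 0.1%, and 20 between 0.1% and 0.2%. For the description below the 62 cells were split by this share into 27 cells with 0.1% to under 0.3%, 14 with 0.3% to under 1% and 21 with 1% or more, called the low, middle and high ranges of the share. Their median depths were close: 32928, 34887 and 32285 UMIs.

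The genes of the rule were themselves graded. Values are given in CPM, the UMIs of a gene per 1000000 UMIs of the summed cells. Myl7 stood at 5374 CPM in the 62 cells and 141 CPM in the others, Myl4 at 3506 and 45.7 CPM, and Tnnt2 at 1475 and 29.4 CPM. These levels were fixed by the choice of cells. Myl7 alone reached 0.1% of UMIs in 40 of the 62 cells. A UMI of Myl7 was also seen in 93.3% of the other posterior cells and in 88.9% of the 54 of them that carried foregut epithelial markers (at least 3 UMIs and at least 2 genes among Epcam, Cdh1, Cldn6 and Cldn7). Foregut epithelium should lack this gene, so the presence of a few Myl7 UMIs in a posterior cell is at background level; the epithelial cells had a median depth of 31395 UMIs. In a shallow cell few UMIs suffice for the rule: 1 of the 62, with 2888 UMIs in all, met it on 3 UMIs of its genes. Of the 62 cells, 5 held under 10000 UMIs. None of the 62 cells met the epithelial rule, but the shallowest, with 1288 UMIs, held 3106 CPM of foregut epithelial genes.

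The name was checked against 11 cardiomyocyte markers that the rule did not use (Actc1, Tnni1, Tnnc1, Myh6, Myh7, Ttn, Actn2, Csrp3, Smpx, Nppa and Nkx2-5). At least 3 of them had a UMI in 53 of the 62 cells: 18 of 27 in the low range and all 14 and 21 cells of the middle and high ranges. The same held for 115 of the 356 other cells. With each cell thinned to 10000 UMIs, it held for 41 of 57 against 17 of 338. In the 9 cells that fell short of 3 markers at full depth, all of the low range, the name rests on the 3 genes of the rule and at most 2 of the markers. For the other 53, a count of 3 markers at full depth does not by itself set a cell apart, since 115 of the others reached it. At the middle position all 5 cells had shares of 0.125% to 0.183%. Of the 11 markers, 4 were seen there (80 UMIs of Tnni1, 14 of Nkx2-5, 5 of Ttn and 1 of Myh7), and the other 7, Actc1 among them, had no UMI. The 4 anterior cells had shares of 0.115% to 1.04% and held 1, 1, 2 and 29 Actc1 UMIs.

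Across the 8472 genes with at least 100 UMIs in the posterior library, 380 (4.49%) were at least 2-fold higher in the cardiomyocyte-like cells and 364 (4.30%) at least 2-fold lower. The rule used this same contrast, so these counts and the lists below, which leave out the 3 genes of the rule, describe the cells and support no claim about them. The median log2 ratio over all genes was -0.06, and 43.9% of genes had a ratio above 1. A gene that is present only in these cells passes the minimum of 100 UMIs through them alone, so the muscle lists count genes that had to differ. The same holds for some genes of other lists. Without the 54 epithelial cells among the others, 369 of 8050 genes (4.58%) were at least 2-fold higher and 281 (3.49%) at least 2-fold lower.

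Thin filament genes were higher in the cardiomyocyte-like cells. All 9 listed genes with enough UMIs had ratios above 1 and 8 were at least 2-fold higher, with a median log2 ratio of 5.78. Only 6 passed the minimum on the UMIs of the others alone. Of these, 5 were at least 2-fold higher, with a median of 3.86. By cell, Actc1 (chr2:114047282-114053548; gene positions are from GENCODE vM21 on GRCm38) ran from 0 to 21289 CPM in the 62 cells, with a median of 1128 CPM, and from 0 to 556 CPM in the 356 others, with a median of 24.7 CPM. None of the 356 others reached the median of the 62, while 7 of the 62 had no Actc1 UMI, so the groups overlapped at the low end. Summed, Actc1 stood at 4468 and 34.1 CPM, a 131-fold difference (counting interval 119 to 145). Actc1 had a UMI in 88.7% of the 62 cells, 57.9% of the others and 27 of the 54 epithelial cells; among the 57, 338 and 49 of these cells deep enough to be thinned to 10000 UMIs, the shares were 75.4%, 29.0% and 22.4%.

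Troponin genes differed in the range at which they were high. Tnni1 (chr1:135779434-135810989), the slow skeletal troponin I that embryonic hearts use, had UMIs in all 62 cells, from 32.4 to 3934 CPM with a median of 1176 CPM. In the others its median was 27.5 CPM and its highest value 942 CPM. It was 24.6-fold higher (22.7 to 26.7) and reached 506, 1463 and 2936 CPM in the low, middle and high ranges. Tnnc1, troponin C of slow and cardiac muscle, read 12.6, 198 and 2547 CPM in those ranges and 12.5 CPM in the 356 others. Low-range cells were at the level of the others for Tnnc1 and 8.15-fold (7.25 to 9.17) above them for Tnni1. Tnni3, the adult cardiac troponin I, resembled Tnnc1 with 8.40, 41.8 and 881 CPM.

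**Figure D2:**
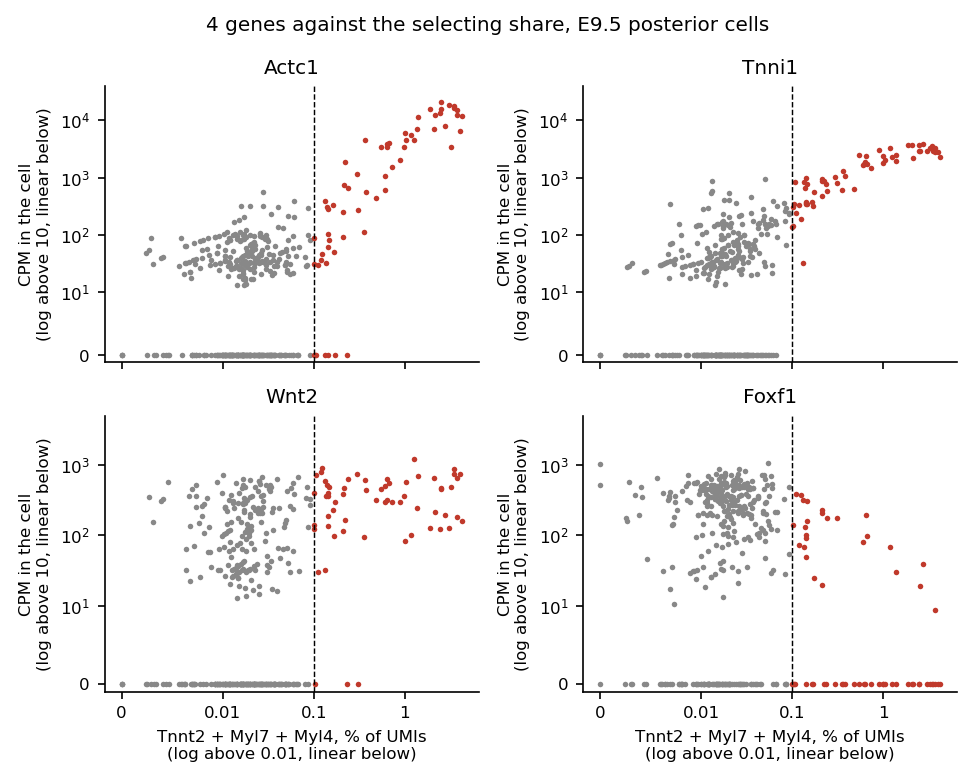
Points are the 418 E9.5 posterior cells; red points meet the rule. The horizontal axis is the share of UMIs from the 3 genes of the rule, in percent, and the vertical axis is the gene's CPM in the cell (logarithmic with a linear part near 0). Actc1 and Tnni1 climb with the share, Wnt2 is spread over 1 band at all shares past the rule, and Foxf1 is 0 in most cells at the right.

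Thick filament genes were highest in the cells with the largest share. All 7 listed genes with enough UMIs were at least 2-fold higher, with a median log2 ratio of 6.48. None of these genes passed the minimum on the UMIs of the others alone. Their count was therefore partly built in and carries no weight as a count. By cell, Myh6, the alpha myosin heavy chain, ran from 0 to 55.5 CPM in the low range, with a UMI in 3 of 27 cells. It ran from 0 to 226 CPM in the middle range and from 163 to 2540 CPM in the high range, with a UMI in 8 of 14 and 21 of 21 cells. The low range overlapped fully with the 356 others, whose highest cell had 110 CPM, and the high range did not overlap with them. Myl3 and Myl1, further essential light chains, were 86.8-fold (62.5 to 124) and 89.2-fold (60.9 to 136) higher over all 62 cells. Unc45b, a chaperone that folds myosin, stood at 4.69 CPM in the others, was 22.4-fold above them in the low range, and read 230 and 322 CPM in the middle and high ranges.

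Z disc and titin genes followed the same order. All 11 listed genes with enough UMIs were at least 2-fold higher, with a median log2 ratio of 4.22. With 100 UMIs required in the others alone, 6 genes were left, all 6 at least 2-fold higher, with a median of 2.64. Ttn (chr2:76703980-76982547), titin, stood at 614 and 3.04 CPM, a 202-fold difference (144 to 291), and had a UMI in 13 of 27, 12 of 14 and 21 of 21 cells of the 3 ranges. It had a UMI in 9.26% of the epithelial cells and in 8.99% of all the others. Csrp3, a Z disc LIM protein, stood at 519 and 3.30 CPM, and Ankrd1, a titin-binding and nuclear protein, at 271 and 1.04 CPM. Cryab, a small heat shock protein that binds desmin and titin, was 18.6-fold higher.

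Set side by side, the 26 sarcomere genes that were at least 2-fold higher reached very different fractions of their high-range level in the low range. All 26 were higher in the middle than in the low range and highest in the high range; the share that defines the ranges comes from genes of the same kind. The low range stood at a median of 3.95% of the high range, from 0.485% for Myh6 to 36.9% for Tpm2 (a tropomyosin). Unc45b (32.6%), Pdlim5 (20.7%) and Tnni1 (17.2%) were near the upper end of this list and Tnnc1 (0.495%) and Myl3 (0.532%) at the lower end. These examples were taken from the 2 ends of the list after their values were seen. The low range was at least 2-fold above the 356 others for 19 of the 26 genes. The 26 were picked as higher over all posterior cells of the rule, the low range included. Their count was therefore partly built in and cannot be set against the share of all genes. Some of the 19 were at low levels there, such as Ldb3 at 2.10 CPM and Tmod1 at 4.20 CPM. With 100 UMIs required in the low-range contrast, 1 thick filament, 6 thin filament and 6 Z disc and titin genes were tested. Of these, 1, 3 and 4 were at least 2-fold higher. Among all 8134 genes tested in that contrast, 2.19% were at least 2-fold higher and 4.39% at least 2-fold lower. Those percentages were 4.67% and 8.33% in the middle range, and 7.13% and 16.5% in the high range.

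**Figure D3:**
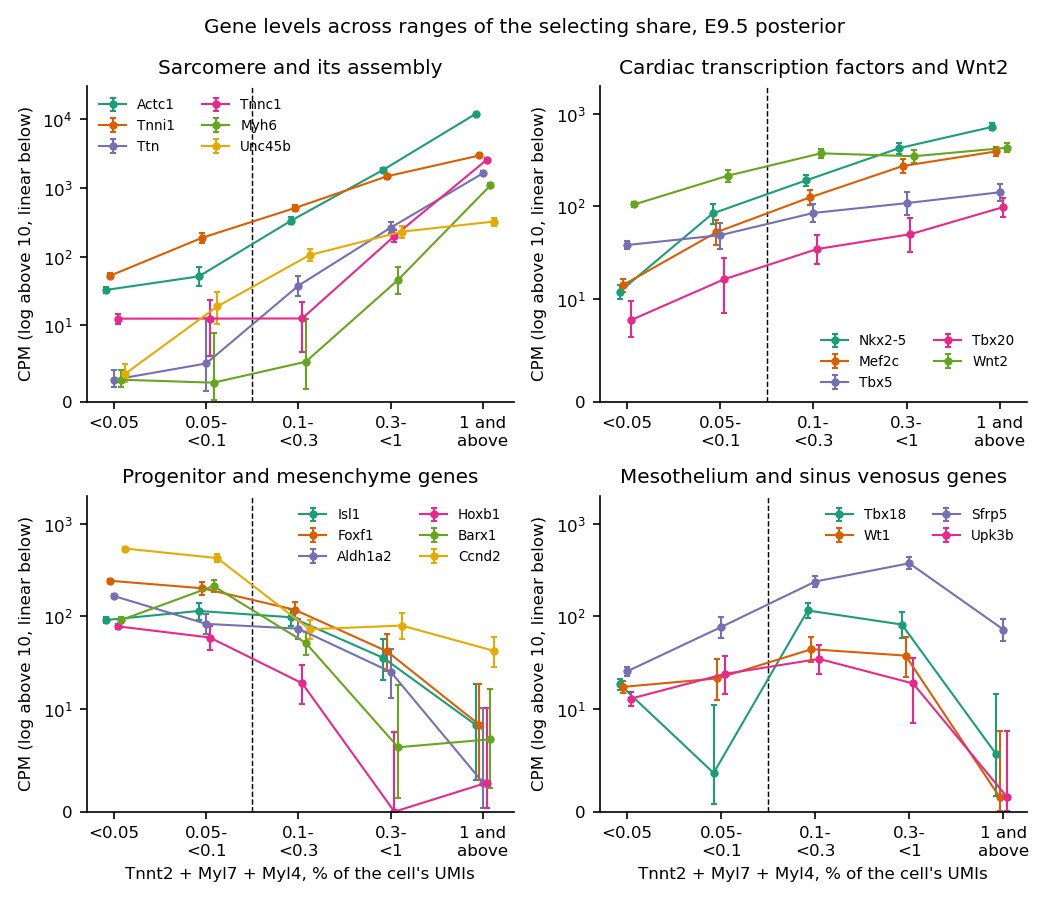
The horizontal axis orders the E9.5 posterior cells by the share of UMIs from the 3 genes of the rule (327, 29, 27, 14 and 21 cells from left to right) and the vertical axis is CPM of the summed cells, logarithmic above 10. Bars are exact 95% Poisson intervals and the dashed line is the rule. Sarcomere genes rise to the right at different points, Wnt2 is level past the rule, progenitor genes descend, and Tbx18, Wt1 and Upk3b are low in the last group.

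Calcium handling genes were low in UMIs. Only 3 of the 18 listed passed the minimum, and all 3 were at least 2-fold higher. Only 1 passed it on the UMIs of the others alone. Ryr2, the calcium release channel, stood at 95.7 and 6.52 CPM (14.7-fold, 11.2 to 19.4), and Atp2a2, the SERCA2 calcium pump, at 412 and 70.8 CPM (5.82-fold, 5.29 to 6.41). Hcn4, the pacemaker channel of the developing inflow, stood at 38.7 and 3.39 CPM (11.4-fold, 7.73 to 17.2) and was 24.1, 23.0 and 69.0 CPM in the 3 ranges. Of the 15 below the minimum, Trdn (triadin) had 38 UMIs in 9 of the 62 cells and none in the others. Pln, the SERCA2 inhibitor phospholamban, had 5 UMIs and 1 UMI. Trdn and Pln were named after their values were seen.

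Cell junction genes differed in direction. Of 10 with enough UMIs, 6 were at least 2-fold higher and 1 at least 2-fold lower. The higher ones included Popdc2 (9.38-fold, 7.44 to 11.9) and Bves (5.37-fold, 4.04 to 7.14), membrane proteins of heart muscle, and Pkp2, a desmosome protein (5.70-fold, 4.28 to 7.61). The lower one was Gja1, connexin 43, which stood at 23.3 and 78.8 CPM, 3.38-fold lower (2.54 to 4.58), and at 39.9, 16.7 and 5.63 CPM in the 3 ranges. Gja5, connexin 40, which was named after its values were seen, had 90 UMIs in 21 of the 62 cells and 6 UMIs in 6 of the others.

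Smooth muscle genes that embryonic cardiomyocytes also express were higher as well. Of 7 with enough UMIs, 6 were at least 2-fold higher, with a median log2 ratio of 4.40. On the UMIs of the others alone 4 passed the minimum, and 3 of them were at least 2-fold higher, with a median of 3.75. Acta2, smooth muscle alpha-actin, stood at 2678 and 44.8 CPM (59.8-fold, 54.7 to 65.6). Cnn1 (calponin) was 48.7-fold, Myl9 (a regulatory light chain) 21.1-fold and Tagln (transgelin) 8.51-fold higher. Myh11, the smooth muscle myosin heavy chain that defines mature smooth muscle, had 1 UMI in each group. The skeletal muscle factors Myf5, Myod1 and Myog had no UMI in either group.

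Among cardiac transcription factors, 9 of 12 with enough UMIs were at least 2-fold higher and 1 at least 2-fold lower, with a median log2 ratio of 1.31. Nkx2-5 (chr17:26838664-26845009), a homeodomain factor needed for heart differentiation, ran by cell from 0 to 2119 CPM with a median of 477 CPM in the 62 cells, and from 0 to 679 CPM with a median of 0 in the others. It had a UMI in 14 of 27, 12 of 14 and 21 of 21 cells of the 3 ranges, in 13 of the 29 cells just under the rule and in 48 of the 327 cells below 0.05%. Over the 62 cells it was 24.8-fold higher (21.2 to 29.1), and it had a UMI in 7 of the 54 epithelial cells. Mef2c (14.6-fold, 12.4 to 17.4), a MADS factor, read 125, 273 and 393 CPM in the 3 ranges. Myocd, the SRF cofactor myocardin, had 90 UMIs in 40 of the 62 cells and 17 UMIs in 14 of the others (28.4-fold, 16.8 to 51.0). Tbx20 was 6.96-fold higher (5.31 to 9.16).

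Factors shared with the progenitor field differed less. Gata4, Gata5 and Gata6, zinc finger factors of the heart and foregut mesoderm, had ratios of 1.96, 2.19 and 2.17, and Tbx5, a T-box factor of the inflow, 2.80 (2.38 to 3.29). These 4 were named after their values were seen. Tbx5 read 85.0, 109 and 142 CPM in the 3 ranges. The lower factor was Hand1, a bHLH factor of the outer ventricle and body wall mesoderm, at 3.73 and 30.2 CPM, 8.07-fold lower (4.05 to 18.9). Hand1 had UMIs in 42 of the 356 others, the highest of them at 2001 CPM.

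Among genes with enough UMIs, the ventricular and atrioventricular canal lists held none at least 2-fold higher over all 62 cells. Of 3 canal genes with enough UMIs, 2 (Tbx3 and the Wnt agonist Rspo3) were at least 2-fold lower, with a median log2 ratio of -1.17. None of the 4 ventricular genes with enough UMIs was at least 2-fold higher and 1, Hand1, was at least 2-fold lower. In the high range taken alone, 1 of 4 was at least 2-fold higher and 1 at least 2-fold lower. Irx4, a ventricle-specific factor, had no UMI in the posterior library. Myl2, the ventricular regulatory light chain, was below the minimum, with 19 UMIs in 8 of the 62 cells and 4 UMIs in the others. The 62 cells held 2142174 UMIs in all and the others 11508234, so per UMI Myl2 was higher in the 62 cells. Its atrial counterpart Myl7 had 11512 and 1625 UMIs. Myl7 is a gene of the rule, so its counts were fixed by the choice of cells and say nothing about the chamber. Nppa, the atrial natriuretic peptide, had 58 UMIs, all in 8 of the 62 cells, and 1 cell held 69.0% of them. Of these 8 cells, 7 were in the high range. Irx4, Myl2 and Nppa were named after their values were seen.

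Atrial and venous genes were mixed: 3 of 8 were at least 2-fold higher and 1 at least 2-fold lower, with a median log2 ratio of 0.43; without the epithelial cells 2 of 7 were higher and none lower, with a median of 0.80. Stard10 was 5.15-fold higher (4.24 to 6.26). Tbx3, a factor of the conduction system, had 9 UMIs and 109 UMIs, at 4.20 and 9.47 CPM. Nr2f1 and Nr2f2, factors of atrial identity named after their values were seen, had ratios of 0.884 (0.770 to 1.01) and 1.14 (1.04 to 1.25).

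Tbx18, a T-box factor of the sinus venosus and epicardium, was 4.11-fold higher (3.31 to 5.10), and the cells that carried it were mostly those with a low share of the rule genes. By cell it ran from 0 to 672 CPM with a median of 0. It had a UMI in 13 of 27 low-range, 3 of 14 middle-range and 3 of 21 high-range cells, and in 3 of the 29 cells just under the rule. Its summed level was 115, 81.4 and 5.63 CPM in the 3 ranges and 17.4 CPM in the others. Sfrp5, a secreted Wnt antagonist of the inflow, was 7.36-fold higher (6.37 to 8.50), with 237, 374 and 71.8 CPM in the 3 ranges against 28.9 CPM. Unlike Tbx18 it was seen in most cells of each range, 20 of 27, 13 of 14 and 18 of 21, and its level in the high range was above that of the others. Sfrp5 had a UMI in 82.3% of the 62 cells, 23.0% of the others and 53.7% of the epithelial cells.

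Some markers of mesothelium and proepicardium, the outer layer that borders the inflow, were low in the high range, as Tbx18 was. Of 7 with enough UMIs, 1 (Tbx18) was at least 2-fold higher and 1 (Aldh1a2) at least 2-fold lower. The summed level of the list was 422, 382 and 146 CPM in the 3 ranges and 304 CPM in the others. Tbx18 is part of this sum and of the count of cells that comes next. At least 3 of Wt1, Upk3b, Upk1b, Tbx18 and Tcf21 had a UMI in 9 of 27 low-range, 3 of 14 middle-range and none of 21 high-range cells (exact 95% interval up to 16.1%), against 38 of the 356 others. Tbx18 and Wt1 were both seen in 8, 2 and 0 cells of the 3 ranges and in 26 of the 356 others. Wt1 (44.1, 37.6 and 1.41 CPM) and Upk3b (34.6, 18.8 and 1.41 CPM), both named after their values were seen, were each at 1 UMI in the high range. The part of these markers in the levels of Tbx18 and Sfrp5 was not tested.

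Wnt2 (chr6:17988940-18030585), a signalling ligand of the inflow and of early lung mesenchyme, was higher in the cardiomyocyte-like cells at an even level. By cell it ran from 0 to 1229 CPM with a median of 361 CPM, and from 0 to 735 CPM with a median of 21.4 CPM in the others, so the groups overlapped. It had a UMI in 59 of the 62 cells, in 188 of the others and in 27.8% of the epithelial cells; after thinning to 10000 UMIs these were 91.2%, 39.3% and 14.3%. The summed level was 387 and 113 CPM (3.44-fold, 3.14 to 3.75), and 375, 349 and 431 CPM in the 3 ranges. Wnt2 and Tbx5 were both seen in 52 of the 62 cells and in 113 of the 356 others.

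The other genes of the lung and foregut mesenchyme list went the opposite way. Of 9 with enough UMIs, Wnt2 was the 1 that was at least 2-fold higher and 6 were at least 2-fold lower, with a median log2 ratio of -1.89. Foxf1, a forkhead factor of gut and lung mesenchyme, ran from 0 to 388 CPM with a median of 0 in the 62 cells and from 0 to 1076 CPM with a median of 203 CPM in the others. It was 3.71-fold lower (3.13 to 4.43) and read 118, 41.8 and 8.45 CPM in the 3 ranges. Barx1, a homeodomain factor of stomach mesenchyme, stood at 212 CPM in the 29 cells just under the rule and at 51.4, 6.26 and 7.04 CPM past it. Hoxa5 read 31.5, 2.09 and 0 CPM, the last from 0 UMIs.

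Second heart field progenitor genes were mostly lower. Of 10 with enough UMIs, 7 had ratios below 1 and 3 above; 6 were at least 2-fold lower and 1, Mef2c, at least 2-fold higher, with a median log2 ratio of -1.51. Mef2c is also on the list of cardiac factors, and Foxf1 on that of the lung. Isl1, the LIM-homeodomain factor that marks the field, was 1.71-fold lower over all 62 cells (1.41 to 2.09), but 97.6 CPM in the low range against 92.8 CPM in the others, then 35.5 and 8.45 CPM. Nkx2-5 and Isl1 were both seen in 13 of 27, 5 of 14 and 5 of 21 cells of the 3 ranges and in 51 of the 356 others. Hoxb1, a homeobox gene of the posterior field, had 20 UMIs in 8 of the 62 cells and 881 UMIs in 246 of the others (8.20-fold lower, 5.28 to 13.5). Six2 and Eya1, below the minimum, had 0 and 1 UMI in the 62 cells and 37 and 67 in the others; these were named after their values were seen. Osr1 itself was at 185 and 164 CPM, a ratio of 1.13 (1.01 to 1.26), and was seen as a single UMI in 30.6% of the 62 cells and in 89 of the 356 others. By cell the order was the other way, with a median of 137 CPM in the 62 cells and 142 CPM in the others. In the 3 ranges the median was 243, 225 and 118 CPM. Every deposited cell held an Osr1 UMI, so these levels leave out cells without it.

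**Figure D4:**
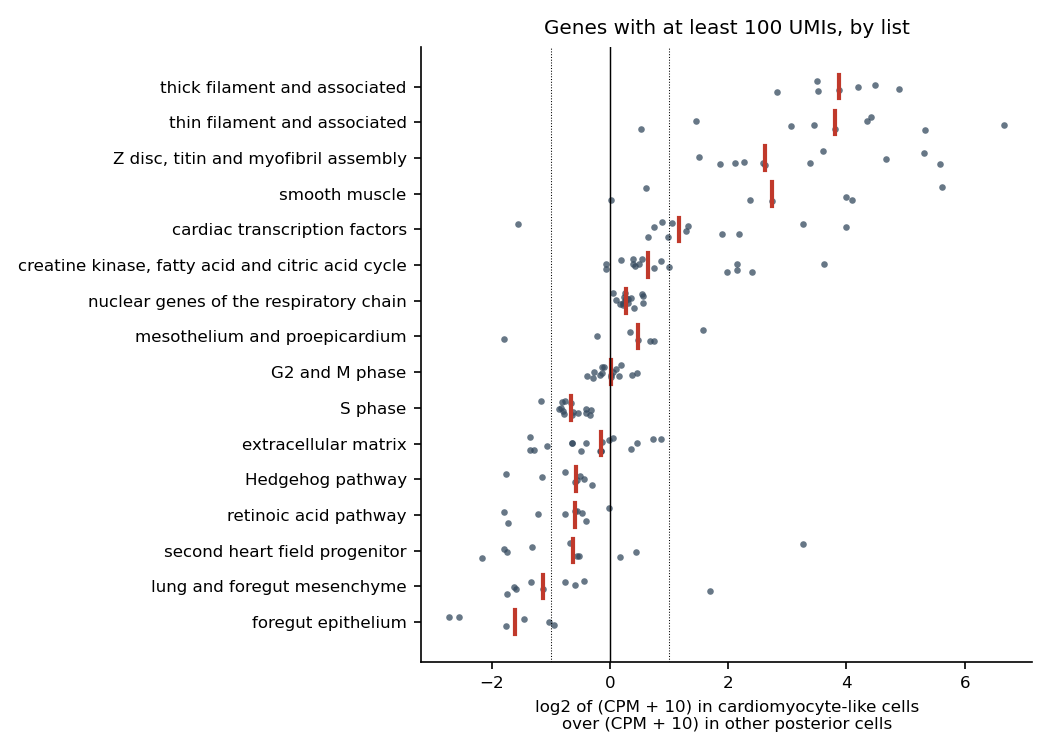
Each point is a gene with at least 100 UMIs in the E9.5 posterior library. The horizontal axis is the log2 ratio of CPM in the 62 cardiomyocyte-like cells over the 356 others, with 10 CPM added to both; red bars are list medians and dotted lines mark a 2-fold difference on this scale. Muscle lists lie to the right, progenitor, lung mesenchyme and epithelial lists to the left, and G2 and M phase genes around 0.

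Cell cycle genes parted by phase. All 15 S phase genes had ratios below 1 and 2 of them, Rrm2 and Cdc6, were at least 2-fold lower, with a median log2 ratio of -0.72. All 15 G2 and M phase genes were within 2-fold, 8 above and 7 below 1, with a median of 0.01. By cell the summed S phase level ran from 243 to 3882 CPM with a median of 1135 CPM in the 62 cells, and from 684 to 5496 CPM with a median of 2071 CPM in the others. It was 1588, 1610 and 746 CPM in the 3 ranges, against 2181 CPM in the others, so the high range was lowest. The G2 and M phase level was 2575, 2503 and 1888 CPM against 2203 CPM. Rrm2, the ribonucleotide reductase subunit made in S phase, read 218, 211 and 52.1 CPM in the 3 ranges against 377 CPM.

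Ccnd2 (chr6:127125162-127152193), cyclin D2, which drives entry into the cell cycle, had the lowest ranked ratio of all genes tested. By cell it ran from 0 to 956 CPM with a median of 8.96 CPM in the 62 cells and from 0 to 2588 CPM with a median of 346 CPM in the others. It had a UMI in 31 of the 62 cells and in 338 of the 356 others. The summed level was 64.0 and 532 CPM, 8.31-fold lower (7.02 to 9.92). Just under the rule it was 425 CPM and past the rule 72.4, 79.3 and 42.2 CPM. By cell the fall began before the rule: the median was 349.8 CPM in the 327 cells furthest below it, 166 CPM just under it and 24.7, 13.4 and 0 CPM in the 3 ranges. The Cdk inhibitors Cdkn1c and Cdkn1b had ratios of 2.01 (1.90 to 2.13) and 2.05 (1.34 to 3.08).

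Genes of energy metabolism differed by list. On the list of creatine kinase, fatty acid and citric acid cycle genes, 7 of 16 were at least 2-fold higher, with a median log2 ratio of 0.80. Among the 12 that passed the minimum on the UMIs of the others alone, 3 were, with a median of 0.55. Cox6a2, a muscle isoform of a cytochrome oxidase subunit, was 60.3-fold (30.5 to 136) and Pgam2, the muscle phosphoglycerate mutase, 57.2-fold higher (39.1 to 86.9). Fabp3, the heart fatty acid binding protein, was 14.0-fold (9.70 to 20.6) and Ckb, the brain-type creatine kinase of embryonic heart, 5.44-fold higher (4.72 to 6.28). The 16 nuclear genes of the respiratory chain all had ratios above 1 with none at 2, a median log2 ratio of 0.27 and a summed level of 8813, 9138 and 13135 CPM in the 3 ranges against 8317 CPM. None of the 13 genes encoded in mitochondria was past 2-fold, and their median was -0.01. Among 14 glycolysis genes 1, Hk1 (6.05-fold), was at least 2-fold higher and 1, Slc2a3, at least 2-fold lower.

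Among signalling lists over all 62 cells, BMP genes leaned higher and Wnt, Hedgehog and retinoic acid genes lower. For BMP, 5 of 13 were at least 2-fold higher and 1 lower: the ligands Bmp7 (3.64-fold, 2.99 to 4.44) and Bmp4 (2.75-fold, 2.28 to 3.31) stood beside the target Id4 (6.95-fold), while Msx1, another target, was 3.78-fold lower (2.33 to 6.56). The summed BMP level was 2605, 2129 and 1785 CPM in the 3 ranges against 1781 CPM in the others. In the high range 4 of 13 BMP genes were at least 2-fold higher and 3 at least 2-fold lower. For Wnt, 2 of 13 were at least 2-fold higher (Wnt2 and Sfrp5) and 5 lower, among them the antagonist Sfrp2 (2.93-fold) and the agonists Rspo1 (3.11-fold) and Rspo3. For retinoic acid, 5 of 9 were at least 2-fold lower and none higher, with a median log2 ratio of -1.04; without the epithelial cells it was 3 of 8, with a median of -0.66. Aldh1a2, the enzyme that makes retinoic acid, read 73.5, 25.1 and 2.82 CPM in the 3 ranges against 160 CPM, and Stra6, a retinol uptake receptor, was 13.1-fold lower (5.58 to 40.7). For Hedgehog, 3 of 8 were at least 2-fold lower: Hhip (3.18-fold), Gas1 (2.51-fold) and the ligand Shh, which had 1 UMI in the 62 cells and UMIs in 43 of the others. Shh is made by foregut epithelium, and its ratio without the epithelial cells was 1.52.

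Notch and FGF genes showed no common direction. For Notch, Jag1, a ligand (2.96-fold), and Hey1, a target of the atrium (2.55-fold), were at least 2-fold higher, and Hes1, another target (3.53-fold), and the receptor Notch2 lower. None of 5 FGF genes was past 2-fold. Of 18 matrix genes, 5 were at least 2-fold lower and 1 higher. Col1a1 was 4.73-fold lower (2.83 to 8.53) and Col3a1 3.13-fold lower (2.41 to 4.15). Postn and Lum, mesenchymal matrix genes, each had 1 UMI in the 62 cells, against 177 UMIs in 27 and 137 UMIs in 21 of the others.

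Outside the lists the genes with the largest ranked increases held several less familiar names. Cck, the peptide cholecystokinin, had 419 UMIs in 24 of the 62 cells and 10 UMIs in the others (196 and 0.869 CPM) and read 21.0, 238 and 401 CPM in the 3 ranges. Hspb1, a small heat shock protein, was 81.5-fold (62.2 to 109), Sh3bgr 26.5-fold and Ppp1r14c, a phosphatase inhibitor, 102-fold higher (65.2 to 169). The transcript 5430431A17Rik was 98.1-fold (61.9 to 165) and Rrad, a Ras-like GTPase that restrains calcium channels, 81.6-fold higher (52.5 to 134). The LIM proteins Crip1 (18.7-fold) and Crip2 (17.3-fold) also had a UMI in 83.3% and 75.9% of the epithelial cells.

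The ranked decreases held both mesenchymal and epithelial genes. Cxcl13, a chemokine, had 1 UMI in the 62 cells and 705 UMIs in 166 of the others, a ratio of 0.00762 (0.000193 to 0.0426). Wnt4 had none in the 62 cells and 338 UMIs in 100 of the others, at least 21.0-fold lower with 3 counts over the group as the floor. Arg1, arginase 1, stood at 46.7 and 336 CPM (7.20-fold lower, 5.91 to 8.88) and declined through 80.8, 33.4 and 9.85 CPM. Cldn11, Col26a1, Cxcl12 and Ifitm1 were 36.5-fold, 12.8-fold, 9.28-fold and 4.12-fold lower.

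Some of the low ratios depended on the epithelial cells in the comparison group. All 6 foregut epithelial genes with enough UMIs were at least 2-fold lower, with a median log2 ratio of -4.49; without the 54 epithelial cells none of the 6 kept 100 UMIs. Their summed level was 11.2 CPM in the 62 cells, and by cell it ran from 0 to 3106 CPM with a median of 0, the highest from the shallowest of the 62 cells (1288 UMIs), while Sox2 and Nkx2-1 were at 0 UMIs. Cldn6 had a ratio of 0.0464 with the epithelial cells and 1.21 without them, Ttr 0.179 and 3.15, and Slc2a3 0.268 and 2.00. Krt8, a keratin of simple epithelium, went from 0.862 to 1.69. Ccnd2 (0.111), Arg1 (0.135), Foxf1 (0.231), Hoxb1 (0.109) and Aldh1a2 (0.213) had ratios without the epithelial cells that were as low as with them. Of 4 endothelial genes with enough UMIs 1 was at least 2-fold higher and 2 lower: Kdr, a VEGF receptor of early mesoderm and endothelium, was 5.42-fold higher (4.12 to 7.14), and Pecam1 was at 3.27 and 8.25 CPM. Kdr had a UMI in 33 of the 62 cells and in 37 of the others. At least 3 of Pecam1, Cdh5, Tek, Emcn and Cldn5 had a UMI in 1 of the 62 cells, in the middle range, and in 5 of the 356 others. Haemoglobin genes of red cells were at 78.0 and 73.0 CPM summed.

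In the E10.5 sample the same rule was met by 6 of 560 posterior cells (1.07%, 0.394% to 2.32%) and 1 of 331 middle cells (0.302%). None of 45 anterior and none of 31 outflow tract cells met it, which allows shares of up to 6.67% and 9.68% when 3 cells are taken as the limit of a count of 0, or 7.87% and 11.2% by the exact 95% interval. The stages differ in depth: the median posterior cell held 31257 UMIs at the earlier stage and 5388.5 at the later one. With every cell thinned to 4000 UMIs the posterior shares were 16.3% and 0.536%, the latter from 3 cells. Each stage is 1 sample, so stage and sample cannot be told apart. The 6 cells held 7 to 385 UMIs of the 3 genes, and 1 cell, with a share of 3.72%, held 166 of their 176 Actc1 UMIs. In that sample, 8.59% of 4577 genes were at least 2-fold higher and 21.1% at least 2-fold lower in these 6 cells. Of the 25 leading higher genes of E9.5, 24 had ratios above 1 at E10.5, counted with no minimum of UMIs. Only 5 of the 25 held at least 100 UMIs in the E10.5 posterior library, and all 5 were at least 2-fold higher. Of the 4577 genes with that many UMIs, 43.0% had ratios above 1, a share that does not cover the sparser genes of the 25. When the cell with the share of 3.72% was left out, 14 of the 25 had ratios above 1. The other 11 had no UMI in the remaining 5 cells, which held 30872 UMIs in all. Nkx2-5 had no UMI in the 6 cells.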

How the data were processed

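The authors deposited 1 matrix of raw UMI counts per gene and cell for each stage. Per the labels' protocols the cells were dissociated with trypsin and run on 10x Chromium with reads aligned to mm10, and the submitters' processing notes name Cell Ranger 3.0 and Seurat. The suffix of a barcode gives the dissected position, per the labels. No barcode was shared between E9.5 libraries or between stages, and 1 was shared between E10.5 libraries.

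Counts were summed over the cells of a group and scaled to CPM (Python 3.11.15, numpy 2.4.6, pandas 2.3.3, scipy 1.17.1). Ratios carry exact conditional Poisson (Clopper-Pearson) 95% intervals and shares exact binomial ones, all for counting error only; UMIs of 1 cell are not independent. The code was tested on simulated counts. Genes needed 100 UMIs in the E9.5 posterior library, or in the E10.5 posterior library for that stage. Named genes were the 3 of the rule, Osr1, the 25 highest and 15 lowest on the log2 scale with 10 CPM added, up to 4 per list in either direction, and defining markers of other cell types; others are marked as chosen later, and some listed genes are not reported here. For shares of cells, thinning to 10000 UMIs left out 5 of the 62 cells and 18 of the 356. Doublets were not removed: Scrublet (scanpy 1.11.5) marked none of the 62 and 2 of the 356. Of 17492 E9.5 symbols, 17299 matched GENCODE vM21. The cells, the 35 gene lists and the ranges were chosen with earlier results of these data known.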

Additional observations from a re-analysis of the deposited data

Results flagged for a closer look

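A total of 3 matrix and signalling genes stood out because the ratio of cells meeting the rule to other posterior cells lay below 1 at E9.5 and above 1 in the E10.5 sample, with both counting intervals beyond 1. Col3a1, a fibrillar collagen, had ratios of 0.319 (0.241 to 0.415) and 2.42 (1.37 to 3.96). Gas1, a Hedgehog co-receptor, had ratios of 0.399 (0.318 to 0.495) and 3.31 (1.69 to 5.86). Crabp1, a retinoic acid binding protein, had ratios of 0.298 (0.196 to 0.437) and 3.26 (1.04 to 7.80). The E10.5 values rest on 16, 12 and 5 UMIs in 6 cells. The difference between the samples was not tested, since each stage is 1 sample, and the intervals take no account of the spread between cells.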

How the results depend on the processing

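The counts depended on where the rule was set. At 0.05% the cells were 21.8% of the posterior library with 222 genes at least 2-fold lower, at 0.2% 10.0% with 555, and at 0.5% 7.18% (30 cells) with 974. They also depended on the minimum of UMIs and the scale: with at least 50 UMIs, 591 genes were at least 2-fold lower; with at least 1 UMI, 2043 were higher and 3680 lower; with 10 CPM added to both sides, 229 were higher and 102 lower. With 100 UMIs required in the other cells alone, a choice made after the data were seen, 245 were at least 2-fold higher. The remaining settings (cells under 10000 UMIs, Scrublet-marked or epithelial cells left out, cells of all positions, per-cell means, median ratio scaling, totals without the genes of the rule, and, added later, the deepest cell left out) kept both counts within 1.5 times. With the rule at 0.05%, 0.2% and 0.5%, 86, 89 and 62 of the 136 named genes stayed within the counting interval of their value at 0.1%. On the log2 scale with 10 CPM added, these 136 named genes were computed under 11 settings, and 13 of 1496 values, in 11 genes, changed sign where the counting interval had left out 0. Without the epithelial cells these were Cldn6 at 0.071, Ttr at 0.69, Shh at 0.022, Cldn7 at 0.20, Krt7 at 0.23, Krt8 at 0.71, Cdkn1a at 0.039 and Slc2a3 at 0.67; fewer epithelial cells are left in the comparison by construction. With the rule at 0.2% Krt8 was at 0.053. With it at 0.5% Krt8 was at 0.040, Tbx18 at -1.04, Tcf21 at -0.54 and Egfl7 at -0.35; the cause was not tested. Depth limits the genes under 100 UMIs, among them most ion channels. No paired analysis was possible because each stage is 1 sample, and no result comes from a test.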

Other observations

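The 29 posterior cells just under the rule, with shares of 0.05% to under 0.1%, held values between those of the cells on either side for some genes and not for others. Nkx2-5 read 84.0 CPM there, against 11.95 CPM in the 327 cells below them and 191 CPM in the low range, and Mef2c 52.7 CPM against 14.2 and 125 CPM. Barx1 was highest in these cells, at 212 CPM against 91.1 and 51.4 CPM. Tbx18 was at 3.76 CPM, from 3 UMIs, against 18.4 and 115 CPM. These cells were singled out after the data were seen.

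The 5 middle cells that met the rule held 37 Tnnt2, 115 Myl7 and 47 Myl4 UMIs, beside 80 of Tnni1 and 90 of Acta2 and none of Actc1.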
